A study of Mus musculus with 6 samples.

Results

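The B cell receptor signalling cascade was followed through 34 activating genes, chosen by name from the receptor, its coreceptor, the kinases, the adaptors, the PI3K and calcium arms and the CBM complex. All 34 were found among the 15861 genes of the deposited count table. RNA had been taken from germinal centre B cells sorted as B220+ GL7+ FAS+, with 1 library per mouse. The KO group held 3 C57BL/6 mice with floxed Lsd1 alleles and 1 Cre allele (Cgamma-cre+/-; Lsd1 f/f), and the WT group held 3 C57BL/6 mice with the same floxed alleles and no Cre (Lsd1 f/f). Lsd1 is the older name of Kdm1a, a histone demethylase gene. The design calls the animals littermates. Age, immunisation and the promoter details of the Cre allele are not stated in the labels, and no group with Cre but without floxed alleles was analysed here.

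The B cell receptor is a membrane antibody held together with the CD79A and CD79B chains, which carry the signal into the cell. On binding antigen, Src family kinases phosphorylate these chains, SYK docks on them, and the adaptor BLNK brings BTK and phospholipase C gamma 2 together. The phospholipase makes IP3, which opens calcium channels of the endoplasmic reticulum and leads to NFAT activation, and diacylglycerol, which activates protein kinase C beta and through it the CBM complex and NF-kB. In germinal centres this signalling works beside T cell help, and the receptor also takes up antigen for presentation.

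KO libraries held 12.3 to 14.3 M counts and WT libraries 3.39 to 5.52 M, so depth and genotype cannot be told apart. Each of the 34 genes had at least 118 counts in every KO library and at least 48 in every WT library, and all passed the filter on low counts. Kdm1a stood at 81.9, 33.0 and 21.8 CPM (counts scaled to library size, here with the TMM method) in KO libraries 1, 2 and 3, against 134, 85.2 and 92.6 in WT libraries 1, 2 and 3. KO 1 was thus closer to WT 2 than to KO 2 or KO 3, and all member values were also computed without it. Germinal centre B cell markers summed to 2252 to 3029 CPM of the library total in KO mice, against 2975 to 3582 in WT mice, although Mef2b stood at 0.46 CPM or less in every library. Of the 8 tested, 7 had a log2 fold change of KO over WT below 0 (median -0.23). Their averages in log2 units overlapped, at -0.52, -0.04 and -0.15 in KO and -0.30, 0.32 and -0.02 in WT. T cell markers summed to 7.75 to 20.8 CPM in KO mice, against 8.19 to 13.0 in WT mice. The 18 markers of macrophages and dendritic cells added up to 323, 252 and 4151 CPM in KO mice, against 419, 1719 and 3157 in WT mice, a spread that crosses the genotypes.

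No gene of the cascade passed the test between KO and WT, and for most the interval of the fold change lay within 2-fold. Of 34 genes tested, 0 rose and 0 fell at an adjusted p under 0.05 (edgeR quasi-likelihood test, Benjamini-Hochberg adjustment over 10926 genes), where 0.0824% of all genes tested were called. The median log2 fold change was -0.12, beside 0.01 over all genes tested, and 13 of 34 genes lay above 0, or 38.2% where the share of all genes was 51.3%. With library totals alone in place of TMM, 17 of 34 lay above 0, and the median of all genes was then 0.13. At an unadjusted p under 0.05 (edgeR), 3 cascade genes were higher in KO, where the share of all genes was 7.10%, and 2 were lower, where it was 5.50%. These are 8.82% and 5.88% of the 34. For 28 of the 34 genes the 95% interval of the fold change lay within 2-fold in either direction. By DESeq2 1 cascade gene passed, where 1.12% of all genes did, and by limma-voom 0, where 0.0183% did. Without KO 1 none passed either, where 0.226% of all genes did (edgeR).

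**Figure D1:**
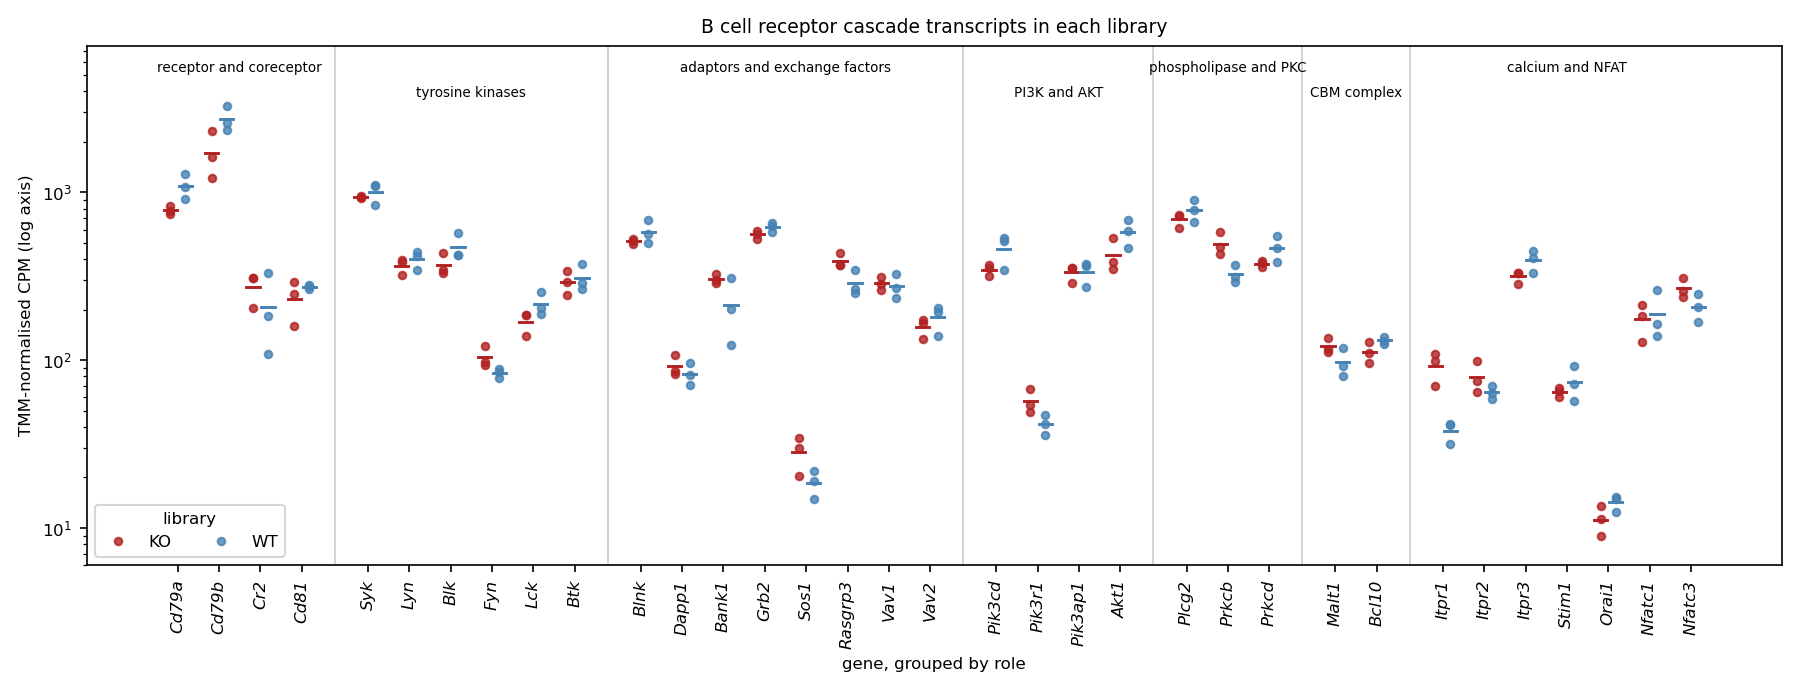
TMM-normalised CPM (log axis) of each of the 34 genes in 3 KO libraries (red, left) and 3 WT libraries (blue, right), with the group mean as a bar and genes grouped by role. Cd79b stands highest and Orai1 lowest in both groups, and the group means of most genes lie close together.

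The KO and WT values did not overlap for 8 of the 34 genes, or 23.5%, where the share among all genes tested was 18.0%. In 5 of them all KO libraries lay above all WT libraries (Fyn, Rasgrp3, Pik3r1, Prkcb and Itpr1), 14.7% of the cascade against 10.0% of all genes. In the other 3 all KO libraries lay below (Cd79a, Cd79b and Lck), 8.82% against 7.95% of all genes. The same 8 genes did not overlap without KO 1, where 23.9% of all genes tested did not overlap. The shares in the cascade were near those of all genes, so the count of 8 says nothing particular about the cascade.

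**Figure D2:**
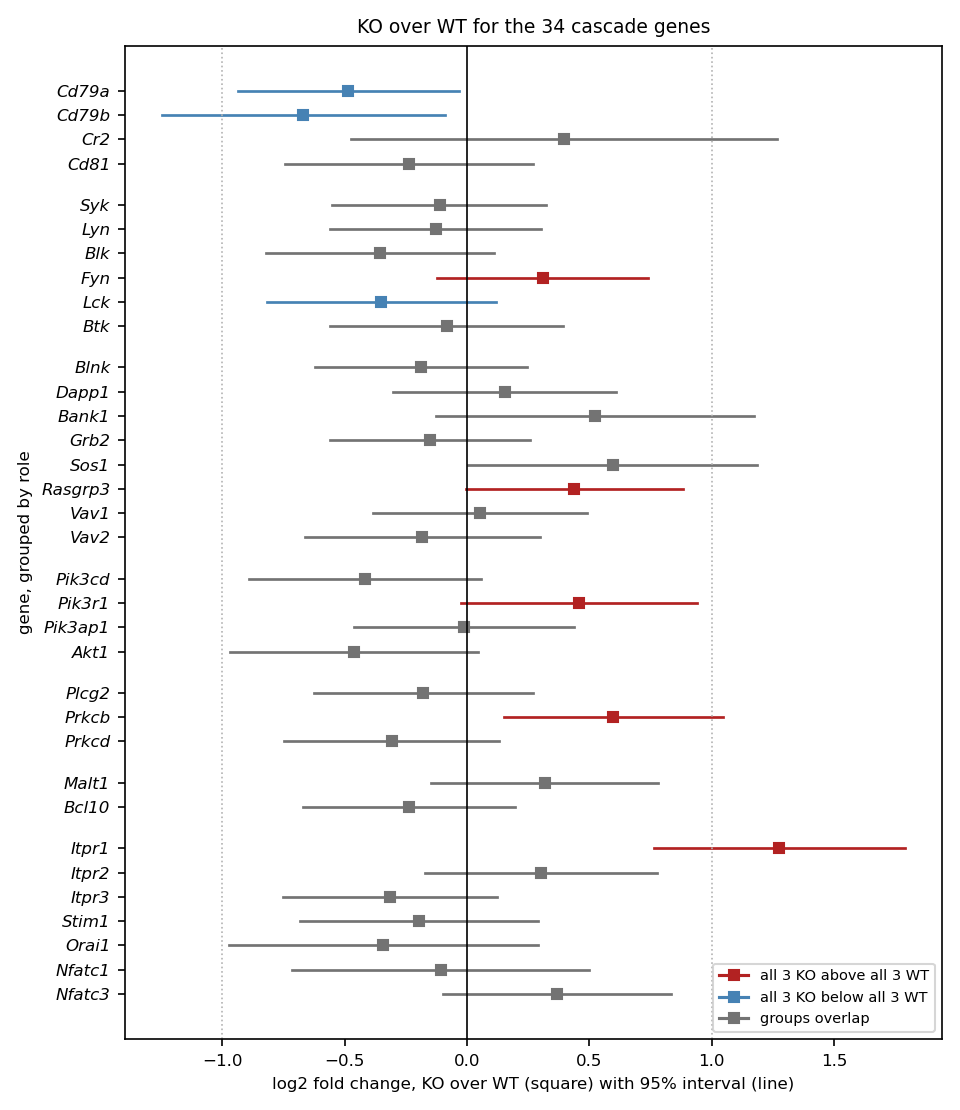
Log2 fold change of KO over WT for the 34 genes (square) with its 95% interval (line), coloured by whether the 3 KO and 3 WT libraries overlap; dotted lines mark 2-fold. Itpr1 lies farthest to the right at 1.28 and Cd79b farthest to the left at -0.67.

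The receptor chains stood at the low end. Cd79b, which encodes the Ig-beta chain, stood at 1209, 2307 and 1631 CPM in KO 1, 2 and 3, against 2342, 2584 and 3252 in WT 1, 2 and 3. All KO libraries lay below all WT libraries, but KO 2 missed WT 1 by little. The log2 fold change was -0.67 with SE 0.26 (edgeR adjusted p = 0.334), and it was -0.48 without KO 1. Cd79a, which encodes the partner chain Ig-alpha, stood at 775, 824 and 742 CPM in KO mice, against 1075, 909 and 1290 in WT mice. Again the groups did not overlap, with KO libraries close to each other and WT libraries more spread. Its log2 fold change was -0.48 with SE 0.21 (edgeR adjusted p = 0.364). The log2 ratio of Cd79b to Cd79a was 0.64, 1.49 and 1.14 in KO and 1.12, 1.51 and 1.33 in WT, which overlap, with KO 1 lowest.

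These 2 genes have the shortest exon sequence of the cascade, 1.46 kb for Cd79a and 1.43 kb for Cd79b. Among all genes tested the fold change ran with exon length. The median log2 fold change was -0.25 for 1366 genes under 2 kb, -0.09 from 2 to 4 kb, 0.03 from 4 to 6 kb, 0.10 from 6 to 8 kb and 0.23 for 1919 genes of 8 kb or more. With a trend on exon length and GC content removed from each library, Cd79b gave a log2 fold change of -0.45 and Cd79a one of -0.22. Of the cascade genes described further on, Akt1 then had a value of -0.20, Lck one of -0.19, Cr2 one of 0.19 and Bank1 one of 0.31, all nearer to 0, and Lyn one of -0.31, Btk one of -0.20 and Blnk one of -0.44, all farther from it.

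The Cd79a promoter is shown because the gene is one of the members set apart by group and a textbook target of B cell transcription factors. Only exact letters were searched for, so binding sites that differ from them are not marked, and unmarked bases do not mean that sites are absent. Capitals mark the ETS letters AGGAAGT, searched on both strands in the 250 bases before the RefSeq start (GRCm38.p6, chr7:24897247-24897496, plus strand), which lie 55 to 49 bases before it. GENCODE vM21, used for exon lengths, starts the gene at 24897381, inside this window, so the marked letters lie after that start.
Cd79a: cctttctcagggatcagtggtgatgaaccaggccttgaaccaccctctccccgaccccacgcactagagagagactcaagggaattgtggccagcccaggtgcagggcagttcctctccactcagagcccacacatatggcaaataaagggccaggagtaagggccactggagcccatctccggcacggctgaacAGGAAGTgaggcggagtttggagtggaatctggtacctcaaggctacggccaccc
Promoters of 300 bases, 250 before the start and the rest after it, were found for 28 of the 34 genes, 38 in all since some genes have several starts. The ETS letters were in 12 of these 38 and in 9.35% of all 32851 promoters. The letters CCCNNGGG, a core bound by EBF1, were in 9 of 38 and in 13.7% of all. Cd79a was not among the 9, but EBF1 sites with other letters would be missed.

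The coreceptor genes varied more between mice than between genotypes. Cr2, which encodes the complement receptor CD21, stood at 205, 307 and 310.1 CPM in KO mice, against 109, 333 and 182 in WT mice, so that WT 2 lay above every KO library (log2 fold change 0.40, SE 0.38). Its 95% interval, -0.48 to 1.27, was the widest of the cascade, and its value ran from 0.09 without WT 1 to 0.91 without WT 2. Cd81, a tetraspanin of the same coreceptor, stood at 161, 246 and 291 CPM in KO mice, against 267, 280 and 275 in WT mice, with KO 1 alone well below the rest. Its log2 fold change was -0.24 (SE 0.23), and -0.04 without KO 1. Cr2 is also high in follicular and marginal zone B cells, whose 11 markers summed to 822, 465 and 561 CPM in KO mice, against 486, 370 and 460 in WT mice. Gene by gene they averaged 1.49, 0.46 and 0.35 log2 units above the WT mean in KO 1, 2 and 3 and at 0.00, -0.03 and 0.03 in WT 1, 2 and 3. The part of such cells in the Cr2 level was not tested, and in bulk RNA more cells of a type and more RNA per cell cannot be told apart.

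The proximal kinases Syk, Lyn and Btk had groups that overlap and intervals well within 2-fold. Syk, the kinase that docks on the phosphorylated receptor chains, stood at 944, 920.4 and 937 CPM in KO, against 1084, 837 and 1109 in WT. The KO libraries lay within the WT range, and the 95% interval of the fold, KO over WT, ran from 0.683 to 1.25 (log2 fold change -0.11). Lyn, the main Src family kinase of the receptor, which also starts its inhibitory feedback, stood at 319, 386 and 392 CPM in KO mice, against 344, 440 and 416 in WT mice, with groups that overlap and a fold between 0.678 and 1.24. Btk, the Tec family kinase that activates the phospholipase, stood at 243, 341 and 291 CPM in KO mice, against 264, 376 and 287 in WT mice, also overlapping, with a fold between 0.679 and 1.31. The edgeR adjusted p of these 3 genes was 0.870, 0.840 and 0.920. Macrophages use Syk, Lyn and Btk too, and the part of such cells in these levels was not tested.

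The other Src family genes stood on both sides of 0. Fyn stood at 93.1, 97.7 and 121 CPM in KO mice, against 88.5, 78.2 and 85.1 in WT mice, with every KO library above every WT library (log2 fold change 0.31, SE 0.20, edgeR adjusted p = 0.541). Lck, best known as a T cell kinase, stood at 139, 185 and 185 CPM in KO mice, against 206, 187 and 255 in WT mice, without overlap (-0.35, SE 0.21, edgeR adjusted p = 0.519). Of the 11 T cell markers in the table, whose sums are given above, Cd3d, Cd3g and Cd8a, which define T cells, stood at 1.14 CPM or less in every library. Cd4, which macrophages and dendritic cells can also express, stood at 2.43, 1.62 and 10.9 CPM in KO mice, against 2.10, 4.69 and 7.79 in WT mice. It was the highest of the list in KO 3, WT 2 and WT 3 only. Of the 4 T cell markers tested, 3 had a log2 fold change above 0, Cd28 at 1.55, Zap70 at 1.33 and Cd4 at 0.04. Only Lat, a T cell adaptor gene, lay below 0 as Lck did (log2 fold change -1.38, edgeR adjusted p = 0.404). It stood without overlap at 1.75, 1.48 and 0.36 CPM in KO mice, against 3.94, 2.35 and 3.12 in WT mice. The part of T cells in the Lck level was not tested. Blk, a kinase gene of the B lineage, gave a log2 fold change of -0.36 (SE 0.21), with KO 2 inside the WT range. Per kb of exon, Blk made up 44.4 ± 4.2% of the level summed over the 4 Src family genes in KO and 47.6 ± 2.7% in WT (SD, n = 3 each). Lyn followed with 29.2 ± 1.8% in KO and 27.0 ± 3.7% in WT, then Lck with 18.7 ± 1.6% and 20.1 ± 1.5%. Fyn was lowest with 7.77 ± 1.19% in KO and 5.31 ± 0.75% in WT.

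**Figure D3:**
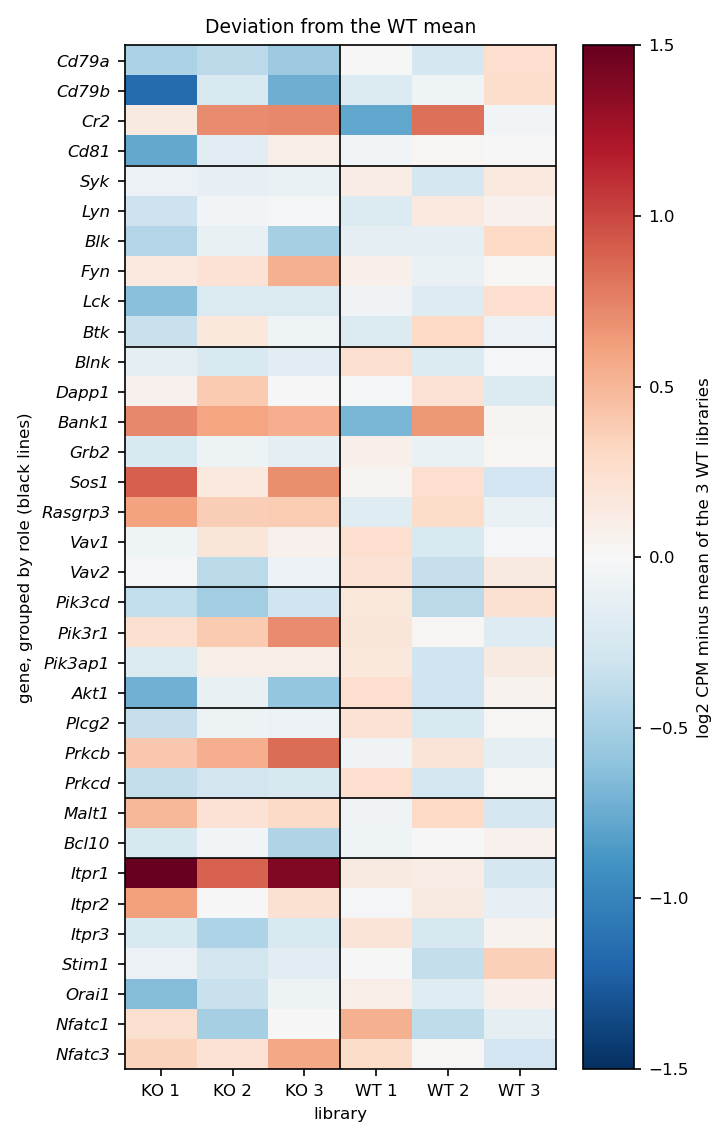
Log2 CPM of each gene in each library minus its mean over the 3 WT libraries; red is above and blue below, KO libraries are left of the black line and genes are grouped by role. Itpr1 is red in all 3 KO libraries, Cd79b and Cd81 are bluest in KO 1, and Cr2 and Bank1 differ most among the WT libraries.

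Of the 8 adaptors and exchange factors, 5 lay above 0 and 3 below. Rasgrp3, a diacylglycerol-bound activator of RAS, stood at 432, 368 and 371 CPM in KO, against 251, 346 and 266 in WT. The groups did not overlap, although WT 2 lay close to KO 2 (log2 fold change 0.44, SE 0.20, edgeR adjusted p = 0.403), and the value was 0.20 with the length and GC trend removed. Sos1, the RAS exchange factor that GRB2 carries to the membrane, stood at 34.4, 20.3 and 30.0 CPM in KO mice, against 18.9, 21.9 and 15.0 in WT mice. KO 2 lay inside the WT range (0.60, SE 0.27, edgeR adjusted p = 0.393), and with the length and GC trend removed the value was 0.21. Grb2 itself had 0.90 times its WT level, with a 95% interval of 0.679 to 1.20.

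The scaffold genes gave no common direction. Blnk, the adaptor that joins SYK to BTK and the phospholipase, gave a log2 fold change of -0.19 (SE 0.20), and Dapp1, a phosphoinositide-bound adaptor, one of 0.15 (SE 0.21). The exchange factor genes Vav1 and Vav2, whose proteins activate RAC, had values of 0.05 (SE 0.20) and -0.18 (SE 0.22). Bank1, a B cell scaffold that links LYN to calcium release, had one of 0.52 (SE 0.29). Its KO libraries, at 326, 298 and 289 CPM, lay close together, and the WT libraries at 122, 310.0 and 203 did not, with the same order of WT libraries as for Cr2. The mean over all genes tested had that order too (-0.075, 0.08 and -0.005 log2 units in WT 1, 2 and 3).

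In the PI3K arm Pik3r1 lay above 0 and Pik3cd and Akt1 below it. Pik3r1, which encodes the regulatory subunit p85 alpha and shorter forms, stood at 48.8, 54.2 and 67.7 CPM in KO, against 46.8, 41.6 and 35.9 in WT. The groups did not overlap (log2 fold change 0.46, SE 0.22, edgeR adjusted p = 0.420), and KO 1 lay just above WT 1. With the length and GC trend removed its value was 0.12. Pik3cd, which encodes the leukocyte catalytic subunit p110 delta, gave a log2 fold change of -0.42 (SE 0.22), with WT 2 inside the KO range. Akt1, the kinase recruited by PIP3, stood at 348, 532 and 382 CPM in KO mice, against 681, 467 and 592 in WT mice. KO 2 lay inside the WT range and the other KO libraries below it (-0.46, SE 0.23, edgeR adjusted p = 0.440). Pik3ap1, the adaptor BCAP, had a value of -0.01 (SE 0.21).

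The protein kinase C genes for the beta and delta forms also lay on opposite sides of 0. Prkcb, whose product phosphorylates the CBM complex scaffold, stood at 427, 473 and 577 CPM in KO mice, against 313, 370.4 and 293 in WT mice. No libraries overlapped (log2 fold change 0.60, SE 0.20), and the gene did not pass (edgeR adjusted p = 0.286). Its value ran from 0.45 without KO 3 to 0.72 with library totals alone. Prkcd, a kinase tied in mice to B cell tolerance, gave a log2 fold change of -0.31 (SE 0.20), with groups that overlap. Plcg2, the phospholipase that both depend on, had a fold of 0.884, with a 95% interval of 0.648 to 1.21.

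The Prkcb promoter is given because it held, as Cd79a did not, the octamer letters ATGCAAAT that OCT factors of B cells bind. Capitals mark them 70 to 63 bases before the RefSeq start, in the 250 bases before it (GRCm38.p6, chr7:122288875-122289124, plus strand, with both strands searched). GENCODE vM21 starts the gene at 122288751, before this window, so the marked letters lie after that start.
Prkcb: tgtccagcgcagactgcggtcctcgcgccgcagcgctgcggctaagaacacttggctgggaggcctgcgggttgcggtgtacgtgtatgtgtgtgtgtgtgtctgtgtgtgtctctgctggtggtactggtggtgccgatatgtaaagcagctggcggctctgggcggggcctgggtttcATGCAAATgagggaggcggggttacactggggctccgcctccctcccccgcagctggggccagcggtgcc
The same letters were in 4 of the 38 promoters, those of Blnk, Itpr3, Orai1 and Prkcb, and in 1.74% of all promoters. Of these 4 genes, Prkcb lay above 0 and the other 3 below it.

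The CBM complex genes had groups that overlap. Malt1, the paracaspase, gave a log2 fold change of 0.32 (SE 0.21), but -0.16 with the length and GC trend removed. Bcl10, its partner, had one of -0.24 (SE 0.20).

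Itpr1 gave the largest difference of the cascade. It encodes the type 1 IP3 receptor, a calcium release channel of the endoplasmic reticulum, and lies on chromosome 6 from 108213096 to 108551109 on the plus strand (mm10). It stood at 108, 69.7 and 98.6 CPM in KO 1, 2 and 3, against 41.5, 40.9 and 31.5 in WT 1, 2 and 3. The lowest KO library, KO 2, lay well above the highest WT library. The log2 fold change was 1.28 (SE 0.24), a fold of 2.42 with a 95% interval of 1.70 to 3.46. It ranked 18 of 10926 genes by p and missed the threshold (edgeR adjusted p = 0.0915). Without KO 1 the value was 1.14. The part of the mix of cells, whose markers are given above, in the Itpr1 level was not tested.

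Itpr1 passed in 3 of 16 alternatives, and its adjusted p over the 16 ran from 0.000734 to 0.612. It passed with no filter (edgeR adjusted p = 0.00397), by DESeq2 (adjusted p = 0.000734) and with the length and GC trend removed (edgeR adjusted p = 0.0449), where 0.586%, 1.12% and 0.247% of all genes passed. Its exons, merged over all annotated transcripts, span 18.3 kb, the longest of the cascade. With that trend removed the log2 fold change was 0.96. Its exons overlap those of 2 unnamed genes on the other strand by 108 and 181 bases, 0.59% and 0.99% of its exon length, and the strand setting used in counting is not stated in the labels.

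The other IP3 receptor genes had groups that overlap. Itpr2 stood at 98.3, 64.2 and 75.2 CPM in KO mice, against 63.3, 70.2 and 58.9 in WT mice, with KO 2 inside the WT range (log2 fold change 0.30, SE 0.22). Its value was 0.11 without KO 1 and 0.03 with the length and GC trend removed. Itpr3 stood at 332, 283 and 332 CPM in KO mice, against 446, 329 and 403 in WT mice, with KO 2 lowest and WT 1 highest (-0.31, SE 0.20). Per kb of exon, Itpr3 was the main form in each library. It made up 77.3 ± 2.5% of the summed level of the 3 genes in KO and 87.0 ± 2.7% in WT (SD, n = 3 each). Itpr1 made up 11.0 ± 1.2% in KO and 4.20 ± 0.87% in WT, and Itpr2 11.7 ± 1.5% in KO and 8.82 ± 1.83% in WT.

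**Figure D4:**
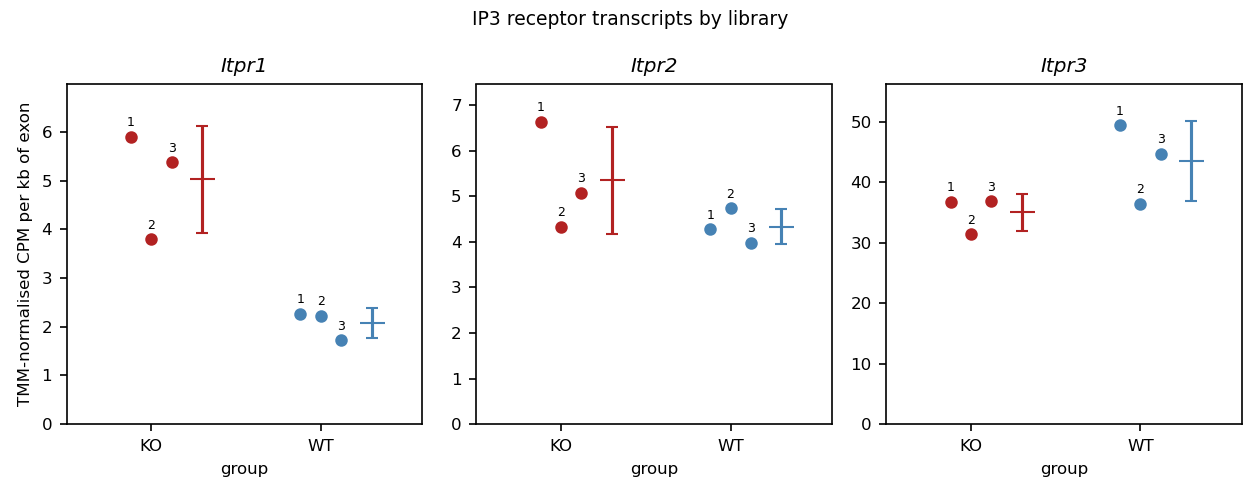
TMM-normalised CPM per kb of exon for the 3 IP3 receptor genes in each KO library (red, left) and WT library (blue, right), numbered by replicate, with mean and SD beside the points and a separate linear axis for each gene. Itpr1 separates the groups, and Itpr3 is the most abundant form in both.

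Ratios between members of a family do not depend on the scaling of libraries, and 7 were compared, chosen after the values were seen and so given without a test. The log2 ratio of Itpr1 to Itpr3 was -1.62, -2.02 and -1.75 in KO and -3.43, -3.01 and -3.68 in WT, a difference of 1.57. That of Prkcb to Prkcd was 0.26, 0.32 and 0.58 in KO and -0.80, -0.04 and -0.66 in WT, a difference of 0.89. That of Pik3r1 to Pik3cd was -2.85, -2.55 and -2.45 in KO and -3.45, -3.05 and -3.89 in WT, a difference of 0.85. Fyn over Blk differed by 0.65, and these 4 ratios did not overlap between the groups. Cd79b over Cd79a, Nfatc3 over Nfatc1 and Vav2 over Vav1 overlapped. The gene on top has the longer exon sequence in these 4 ratios, and also in Nfatc3 over Nfatc1, which differed by 0.47, and in Vav2 over Vav1, which differed by -0.23. With the length and GC trend removed, the log2 fold changes were 0.96 for Itpr1 and -0.24 for Itpr3, and 0.55 for Prkcb and -0.29 for Prkcd. They were then 0.12 for Pik3r1 and -0.27 for Pik3cd, and 0.22 for Fyn and -0.20 for Blk. All these values lay nearer to 0 than in the main fit. The genes of each pair were still on opposite sides of 0, but the pairs had been chosen with that known.

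The genes of calcium entry and NFAT had groups that overlap. Stim1, the calcium sensor of the endoplasmic reticulum, gave a log2 fold change of -0.20 (SE 0.22). Orai1, the channel it opens in the plasma membrane, was the lowest of the cascade by CPM, with 8.96, 11.2 and 13.4 CPM in KO mice, against 15.2, 12.5 and 15.0 in WT mice, and these values overlap (-0.34, SE 0.29). Nfatc1, a transcription factor gene activated by calcineurin, had a value of -0.11 (SE 0.28) and Nfatc3 one of 0.37 (SE 0.21), or 0.02 with the length and GC trend removed.

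The order of levels within the cascade was alike in both groups. Per kb of exon, Cd79b stood first with 1199 ± 387 CPM per kb in KO and 1905 ± 330 in WT (SD, n = 3 each), and Cd79a second with 536 ± 28 in KO and 749 ± 131 in WT. Grb2, Plcg2, Blk, Akt1 and Syk took ranks 3 to 7 in both groups. The ranges of mean ± SD overlapped between Plcg2 and Blk in both groups, and also among Lyn, Btk and Blnk at ranks 8 to 10. The order of the genes was not tested. Sos1 was last in both groups, with 2.66 ± 0.68 CPM per kb in KO and 1.76 ± 0.33 in WT, and Itpr1 next to last in WT at rank 33 and at rank 32 in KO.

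**Figure D5:**
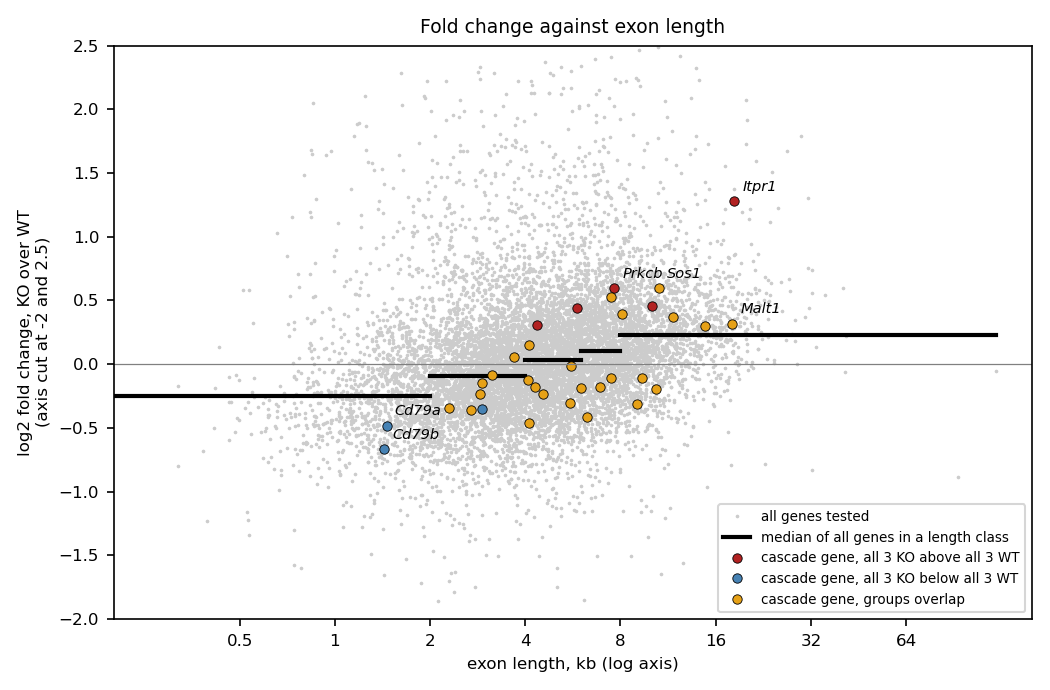
Log2 fold change of KO over WT against exon length (log axis) for all genes tested (grey) and the 34 cascade genes (coloured by whether the groups overlap), with black bars for the median of all genes in 5 length classes; the vertical axis is cut at -2 and 2.5. The bars climb with length, both cascade genes under 2 kb lie below 0, and 7 of the 10 cascade genes of 8 kb or more lie above it.

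Lists of further pathway genes also held no gene that passed over all genes tested. Of 50 other activating genes, 49 were tested, and 0 rose and 0 fell, where 0.0824% of all genes were called. The median log2 fold change was 0.09 with 33 above 0, or 67.35% where the share of all genes was 51.3%. Their median exon length was 6.08 kb, beside 4.47 kb for all genes tested. The smallest p belonged to Vav3, a lowly expressed relative of Vav1 with 3.65, 3.32 and 7.86 CPM in KO mice, against 0.53, 1.37 and 0.94 in WT mice (log2 fold change 2.34, SE 0.59, edgeR adjusted p = 0.195). Next came Pik3r2, which encodes the regulatory subunit p85 beta, at -0.72 (SE 0.26, edgeR adjusted p = 0.305), where Pik3r1 lay above 0. Pik3r2 stood at 33.2, 28.9 and 28.8 CPM in KO mice, against 60.9, 32.1 and 56.7 in WT mice, with WT 2 inside the KO range. Of 30 inhibitory genes, 29 were tested and 0 passed, with a median of 0.03 and 15 above 0, or 51.7%. At an unadjusted p under 0.05 (edgeR), 7 of the 29 were higher in KO and 2 lower. The shares of all genes were 7.10% and 5.50%. Of the 49 other activating genes, 5 were higher and 2 lower by the same measure. Sla, an adaptor that lowers receptor levels, gave 0.76 in log2 units (SE 0.22, edgeR adjusted p = 0.245), and Cd72, an inhibitory coreceptor gene, one of 0.98 (SE 0.29, edgeR adjusted p = 0.260). Cd72 stood at 305, 145 and 150 CPM in KO 1, 2 and 3, against 97.2, 95.2 and 112 in WT mice, with KO 1 far above the rest.

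No transcript on a list of genes that receptor signalling induces passed the test. Of 26 such genes, 20 were tested, 0 passed, and the median log2 fold change was 0.27 with 15 above 0, or 75% where the share of all genes was 51.3%. Tnfaip3, an NF-kB feedback inhibitor gene, stood at 55.8, 37.9 and 46.5 CPM in KO mice, against 29.7, 26.6 and 28.1 in WT mice, without overlap (0.73, SE 0.22, edgeR adjusted p = 0.271). Egr3, an immediate early transcription factor gene, stood at 20.2, 7.90 and 21.7 CPM in KO mice, against 9.46, 6.45 and 7.48 in WT mice, with KO 2 inside the WT range (1.09, SE 0.40, edgeR adjusted p = 0.305). The 20 genes averaged 0.76, 0.21 and 0.29 log2 units above the WT mean in KO 1, 2 and 3, and 0.23, -0.19 and -0.03 in WT. The follicular and marginal zone markers, given above, were also highest in KO 1. The 9 plasma cell markers tested averaged 0.76, -0.10 and 0.63 in KO and -0.03, -0.12 and 0.15 in WT. Their part in the induced transcripts was not tested. The 34 cascade genes averaged -0.04, 0.02 and 0.07 in KO and 0.02, -0.03 and 0.01 in WT, with no gap between the groups.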

How the data were processed

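Raw read counts per gene symbol were deposited by the authors, 1 column per mouse, 3 KO and 3 WT, with groups and replicate numbers from the labels. The submitters' processing notes name CASAVA, the aligner STAR 2.5.2, the counter featureCounts 1.5.2 and the build mm10, but neither annotation nor strand setting. The test was that of edgeR 4.0.16 under R 4.3.3 (filterByExpr, TMM, robust quasi-likelihood fit, two-sided, threshold 0.05) over 10926 genes, and the methods were tested on simulated data. Each SE is the absolute log2 fold change over the root of F. No pair of libraries looked like repeats (chi-square per degree of freedom 15.3 or more). In CPM, 1 read equals 0.0698 to 0.0811 in KO and 0.181 to 0.295 in WT. Exon lengths came from GENCODE vM21, which matched 98.4% of tested genes by symbol, and promoters from RefSeq. Each exon length is that of all annotated exons of a gene merged, which can exceed the length of any single transcript. Levels per kb rest on it. Genes are named in full if the groups do not overlap, if they are among the 3 largest fold changes in a direction, or for Cd79a, Cd79b, Syk, Lyn and Btk. Other cascade genes are given by value, and each further list by its 2 smallest p. The alternatives tried were upper-quartile scaling, DESeq2 size factors, library totals, no filter, at least 5 CPM in 3 libraries, DESeq2 1.42.0, limma-voom (limma 3.58.1), the replicate block and each library left out. Members and lists were chosen with earlier results of these data known.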

Additional observations from a re-analysis of the deposited data

How the results depend on the processing

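The fits on thinned counts and without a trend on length and GC content were added after seeing the data. Of 544 values, 34 genes under 16 alternatives, 524 kept their direction and side of the threshold, 3 passed (all Itpr1) and 17 changed sign. All genes called were 9, but 18 with library totals alone, 93 with no filter, 122 by DESeq2, 2 by limma-voom and 27 with the length and GC trend removed, and 1 to 24 with 1 library left out (1 without WT 2 and without WT 3, 3 without KO 2, 18 without KO 3, 24 without KO 1). Cascade genes called were 0, but 1 with no filter, by DESeq2 and with the length and GC trend removed. Their median was -0.002 with library totals alone, where that of all genes was 0.13, against 0.01 with TMM, and it ran from -0.21 (without WT 2) to -0.077 (without KO 1) with 1 library left out. Library totals alone also gave 1186 genes higher and 318 lower at an unadjusted p under 0.05 (edgeR), against 776 and 601. Kdm1a had a log2 fold change of -1.19, which ran from -1.93 without KO 1, where it passed (edgeR adjusted p = 0.0169), to -0.878 without KO 3.

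Values that changed sign lay between -0.156 (Malt1) and 0.184 (Nfatc1) after the change. In the main fit these 2 genes had values of 0.318 and -0.107. Pik3ap1 was 0.004 with upper-quartile scaling, 0.098 with library totals alone, 0.007 after thinning and 0.044, 0.047 and 0.067 without WT 1, WT 3 and KO 1. With library totals alone Syk was 0.003, Btk 0.036 and Nfatc1 0.007. Nfatc1 was 0.184 without WT 1 and 0.079 without KO 2, Btk 0.084 without WT 2 and 0.029 without KO 1, and Vav1 -0.054 without WT 2 and -0.005 without KO 2. With the length and GC trend removed Dapp1 was -0.027 and Malt1 -0.156. With 1 library left out the lowest or highest values were otherwise -0.204 for Btk, 0.166 for Vav1, -0.147 for Pik3ap1 and -0.289 for Nfatc1. The causes were not tested.

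With the replicate block 21 genes and 0 cascade genes were called, and the cascade median was -0.114. Deviations of same-numbered libraries correlated across genes at 0.341, -0.052 and 0.443. KO 1 and KO 3 correlated best with the WT library of their own number, and KO 2 correlated best with WT 1. These values do not settle whether the shared numbers mark pairs, and the main test did not read them as pairs. Thinned to equal depth, 11 genes and 0 cascade genes were called and the cascade median was -0.121.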
